A study of Mus musculus with 10 samples.

Results

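The tumour necrosis factor (TNF) superfamily comprises cell-surface and secreted ligands and the receptors that bind them. It was described here across 10 RNA-seq libraries of immortalised fibroblasts from mouse embryos (MEFs). Members were all gene symbols that start with Tnfrsf or Tnfsf and a digit, plus Tnf, Lta, Ltb, Ltbr and Cd40; 1 further ligand was left out by the rule. This gave 35 of the 23337 genes, 13 ligands and 22 receptors, of which 19 (6 ligands and 13 receptors) held 10 or more normalised reads in at least 2 libraries and are reported. By genotype the cells were Slfn2 WT (here WT-labelled) or Slfn2 KO (KO-labelled), and by treatment untreated or kept for 6 h with mouse IFN-β, a type I interferon, at 5000 IU/ml. There were 3 WT-labelled libraries without and 3 with IFN-β, and 2 KO-labelled libraries without and 2 with IFN-β. Per the labels' protocol, replicates were plated in duplicate or triplicate, and nothing says that they came from separate cultures or lines. P-values thus measure the spread between these samples, which may be technical, and the knockout and any other difference between the WT-labelled and KO-labelled cells cannot be told apart. By its title, the series addresses Slfn2 in relation to interferon responses and NF-κB.

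TNF superfamily ligands are mostly trimeric proteins that cluster their receptors. Receptors with a cytoplasmic death domain recruit adaptors that lead to caspases or to NF-κB, receptors without one bind TRAF proteins and lead mainly to NF-κB and MAP kinases, and decoy or soluble receptors bind ligand without such signalling. Fibroblasts are known as responders to TNF, through Tnfrsf1a, and as a source of osteoprotegerin (Tnfrsf11b), the soluble decoy that keeps the osteoclast factor RANKL (Tnfsf11) from its receptor Tnfrsf11a.

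The libraries held 13565815 to 16329729 reads, and 3 reads equalled 2.73 to 3.29 normalised reads. Values are normalised read counts, whole reads per gene that were scaled, by the authors, with a factor for each library. Slfn2, the targeted gene, stood at 17.2 ± 1.60 (SD, n = 3) in untreated WT-labelled cells and at 40.5 ± 7.97 (SD, n = 2) in untreated KO-labelled cells, which goes against the label (limma adjusted p = 0.091, 0.039 with the block). With IFN-β it stood at 516 ± 62.7 (n = 3) and 123 ± 68.1 (n = 2), so genotypes are named by their labels throughout. All 8 fibroblast markers were abundant. None of the 8 lymphocyte markers exceeded 3 reads in any library, and of the 7 macrophage or dendritic markers only Csf1r, Cd68 and Cd14 did. Libraries of the same replicate number deviated together in every group, so each comparison below is given without and with the replicate number as a block. KO-labelled cells have numbers 1 and 2 only.

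Promoters were searched for 3 motifs because IFN-β and NF-κB are the questions of the series. RefSeq's table (GRCm38.p6) had an entry for 14 of the 19 genes, in 16 windows of 250 bases before a start site, and both strands were read. The ISRE core of interferon-stimulated promoters (GAAA, 2 free bases, GAAA) was in the windows of Tnfrsf14 and Tnfrsf1b, and in 2.98% of all 32851 windows. The GAS core bound by STAT dimers (TTCNNNGAA) was in those of Tnfrsf1a, Tnfrsf1b and Tnfrsf9, and in 7.02% of all windows. The NF-κB consensus was in that of Tnfrsf9, and in 7.25% of all windows. The sequences below are those of Tnfrsf9, a gene called in both genotype comparisons with the replicate number as a block that had an entry and a match, and the ISRE matches of the other 2 receptors. Capitals mark the motif, on either strand.
Tnfrsf9 GAS core, chr4:150927749-150927917, plus strand: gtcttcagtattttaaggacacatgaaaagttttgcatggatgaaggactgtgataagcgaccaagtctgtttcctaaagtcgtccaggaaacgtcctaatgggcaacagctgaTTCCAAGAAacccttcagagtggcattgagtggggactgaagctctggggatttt
Tnfrsf9 NF-κB consensus, chr4:150927947-150927976, plus strand: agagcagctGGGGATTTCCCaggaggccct
Tnfrsf14 ISRE core, chr4:154928122-154928151, minus strand: ctattttttcTTTCATTTTCacttttcctt
Tnfrsf1b ISRE core, chr4:145246871-145246900, minus strand: cctagctcctggcctgagggTTTCGCTTTC
The longer Tnfrsf9 stretch precedes a RefSeq start site but lies within the gene's span in GENCODE M21 (chr4:150914562-150946102), between its exons. The NF-κB match of Tnfrsf9 and the ISRE match of Tnfrsf14 lie in annotated exon sequence of their genes. The NF-κB capitals cover 2 overlapping matches that start 1 base apart. A match is a description of letters in a window, not evidence of binding.

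Levels of different genes were compared per kilobase of merged exon. By mean over the 10 libraries, Tnfrsf12a (Fn14, the receptor of TWEAK) led at 2092 normalised reads per kb, followed by Ltbr (the lymphotoxin-β receptor) at 1046 and Tnfrsf1a (the main TNF receptor, with a death domain) at 929.8. The ranges of these 3 across libraries overlapped, so their order does not exceed their spread. Tnfrsf11b followed at 480.2 and Tnfrsf1b, the second TNF receptor, at 231. The place of Tnfrsf11b depends on the group: it ran from 69.9 per kb in untreated WT-labelled cells, below Tnfrsf1b at 225, to 1344 in KO-labelled cells with IFN-β, and its range across libraries overlapped that of each gene ranked above it. Summed over the 13 receptors, levels were 4239 ± 1437 reads per kb (SD, n = 3) in untreated WT-labelled cells and 5773 ± 3336 (SD, n = 2) in untreated KO-labelled cells. The 6 ligands together reached 150.4 ± 30.2 and 192 ± 21.7, so receptor messages outweighed ligand messages in every library. Ligands ranked from Tnfsf12 (TWEAK) at 81.3 per kb through Tnfsf9 at 26.5, Tnfsf11 at 20.5, Tnfsf15 at 18.2 and Tnfsf18 at 12.6 to Tnfsf13 at 3.54. Tnfsf12 lay above Tnfsf9 in every library, and the other neighbours among the ligands overlapped across libraries. Below Tnfrsf1b, the receptors ran from Tnfrsf10b at 78.1 per kb through Tnfrsf21 at 63.5, Tnfrsf19 at 39.2, Tnfrsf23 at 28.9 and Tnfrsf4 at 16.5 to Tnfrsf22 at 10.4, Tnfrsf9 at 8.70 and Tnfrsf14 at 5.87. Tnfrsf1b lay above Tnfrsf10b in every library, and each later receptor overlapped the next.

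**Figure D1:**
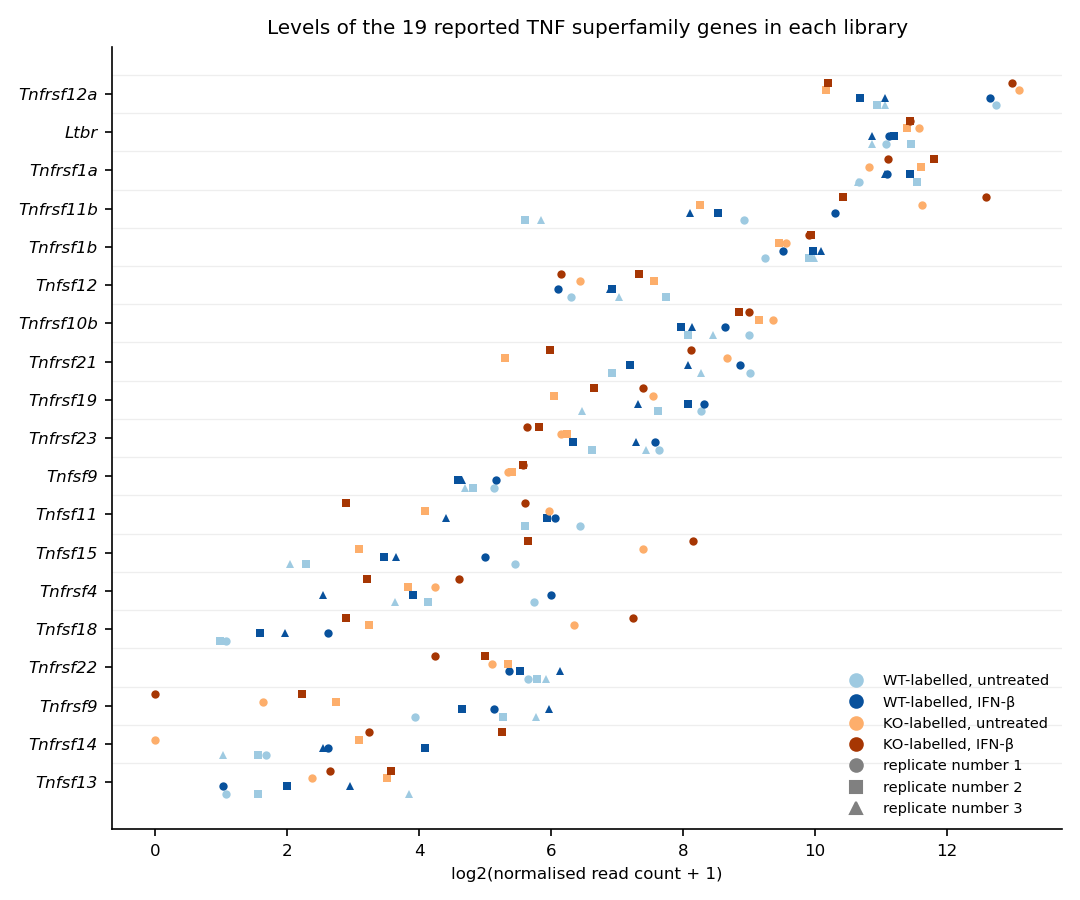
Normalised read count on the log2(count + 1) axis for each of the 19 reported genes in each of the 10 libraries, ordered from the top by mean level per kb; colour gives the group and marker shape the replicate number. Tnfrsf11b, Tnfsf15 and Tnfsf18 spread most widely, and Ltbr, Tnfrsf1a and Tnfrsf1b least among the abundant receptors.

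Several ligand and receptor pairs were incomplete at this depth. Tnf itself had no read in any library, so its 2 receptors were expressed without detectable Tnf message; Lta reached 1.10 normalised reads at most. Ltbr likewise stood without Ltb, which peaked at 1.93, and without Tnfsf14, which had no read. Tnfsf12 and Tnfrsf12a, and Tnfsf9 and Tnfrsf9, were the pairs with both partners reported. Tnfsf11 was accompanied by its decoy Tnfrsf11b, while its signalling receptor Tnfrsf11a peaked at 7.21. Tnfsf15 stood beside Tnfrsf25 with at most 10.4, Tnfsf18 beside Tnfrsf18 with at most 2.20, and Tnfrsf4 beside Tnfsf4 with at most 2.00. Cd40, Tnfrsf13b and Tnfrsf8 had no read. The remaining unreported members peaked at 14.1 (Tnfrsf13c), 9.63 (Tnfsf13b), 3.29 (Tnfrsf26), 2.00 (Tnfsf8) and 1.82 (Tnfrsf17). Of the 16 unreported genes, 5 had no read and 7 never exceeded 3 reads. Just inside the reporting threshold, Tnfsf13 passed through 3 libraries of 10.4 to 13.4; just outside it, Tnfrsf13c and Tnfrsf25 passed 10 in 1 library each. Tnfrsf14 passed only through IFN-β libraries, Tnfrsf9 only through WT-labelled ones and Tnfsf18 only through KO-labelled ones, so the counts of reported genes below are descriptions and support no statement about the family. The same limit bears on the IFN-β differences of Tnfrsf14 and the genotype differences of Tnfrsf9 and Tnfsf18, which were reported through the group where they are high.

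With IFN-β, Tnfrsf11b was the member that passed the test, in WT-labelled cells and with the block. In WT-labelled cells 0 of 19 genes passed limma's test without the block, where 2.21% of all 12313 tested genes did. With the block 1 of 19 passed, against 4.95% of all genes, shares near the background that are no result about the family. No member reached an unadjusted p under 0.05 without the block, where 748 of all 12313 genes did. EdgeR and DESeq2 without the block also called 0 members, against 259 and 410 genes. In KO-labelled cells 0 of 19 passed either way, against 1.84% and 3.48% of all genes. An unadjusted p under 0.05 was reached by 1 of 19 members without and 3 with the block, and by 599 and 1371 of all 12313 genes. The median log2 fold change of the members was -0.07 in WT-labelled and 0.07 in KO-labelled cells, beside -0.03 over all genes in both.

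Among the soluble and decoy receptors, Tnfrsf11b (GRCm38 chr15:54250619-54278484, minus strand) carried the response. Untreated WT-labelled libraries 1, 2 and 3 held 486, 47.4 and 56.8 normalised reads, and 1263, 368 and 275 with IFN-β. The corresponding KO-labelled values for numbers 1 and 2 were 3154 and 306, rising to 6203 and 1371. Each number 1 library was the highest of its group, the groups overlapped, and IFN-β raised the value in all 5 pairs of the same number, by 2.60-, 7.75- and 4.85-fold in WT-labelled and 1.97- and 4.48-fold in KO-labelled cells. In WT-labelled cells the log2 fold change was 2.19 (SE 1.14, adjusted p = 1 by limma), and with the block it passed at the same size (SE 0.29, adjusted p = 0.0025). That blocked call held without each library in turn (adjusted p up to 0.030). In KO-labelled cells the log2 fold change was 1.57, with limma's adjusted p = 1 without and 0.060 with the block, and the interaction did not pass (log2 -0.62, SE 1.81, adjusted p = 1).

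Of the TRAF-binding receptors, Tnfrsf14 (HVEM) was low and higher with IFN-β in all 5 pairs without passing the test. WT-labelled libraries held 2.20, 1.94 and 1.03 normalised reads untreated against 5.15, 16.0 and 4.81 treated, without overlap. The KO-labelled values were 0 and 7.54 before and 8.45 and 37.4 after treatment. The log2 fold change was 1.66 in WT-labelled (limma adjusted p = 1, 0.220 with the block) and 2.70 in KO-labelled cells (0.818 and 0.124). Only 1 or 2 reads per library stand behind the untreated WT-labelled group, and its fold moved with the pseudocount, from 1.87 at 0.5 to 0.93 at 5. Groups did not overlap for 2 members in WT-labelled cells, against 11.6% of all genes, and for 6 in KO-labelled cells, against 20.4%. Tnfsf18 was the other member of the former, with 3 reads in all 3 untreated WT-labelled libraries together and 10 with IFN-β, a ratio of 3.23 (95% counting interval 0.83 to 18.2).

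**Figure D2:**
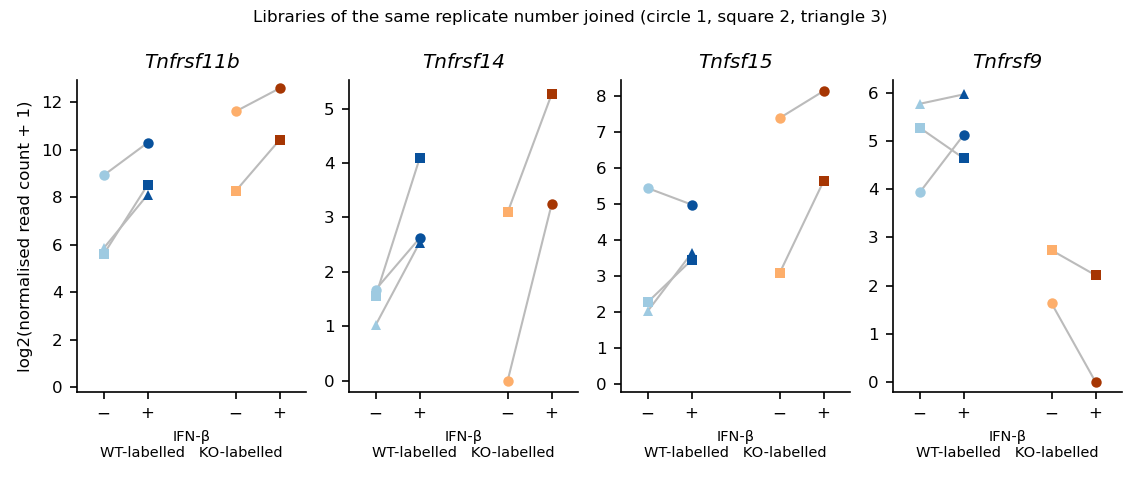
Normalised read count on the log2(count + 1) axis without (−) and with (+) IFN-β in WT-labelled and KO-labelled cells for 4 genes, with libraries of the same replicate number joined by a line. Tnfrsf11b and Tnfrsf14 rise along all 5 lines, Tnfsf15 along 4, and Tnfrsf9 lies lower in all KO-labelled libraries than in any WT-labelled one.

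The main TNF receptors and the death-domain receptors did not pass the test with IFN-β. Tnfrsf1a stood at 2080.4 ± 790.3 (SD, n = 3) untreated and 2373 ± 363 (n = 3) with IFN-β in WT-labelled cells, and at 2466 ± 942 and 2899.98 ± 984 (n = 2) in KO-labelled cells, with limma's adjusted p = 1 in both. Tnfrsf1b held 858 ± 219.8 and 943 ± 186 (n = 3), then 731 ± 36.9 and 972 ± 15.7 (n = 2). Like Tnfrsf11b and Tnfrsf14, Tnfrsf1b was higher with IFN-β in all 5 pairs. Tnfrsf10b was lower with IFN-β in all 5 pairs, with a log2 fold change of -0.26 in WT-labelled and -0.34 in KO-labelled cells (adjusted p = 1 in both). Tnfrsf23 and Tnfsf12 were also lower in all 5 pairs without passing. The share of all genes that moved in the same direction in all 5 pairs was not computed. The interaction called 0 of 19 members and 0.0% of all genes by limma with and without the block; at an unadjusted p under 0.05 there were 36 genes without and 151 with the block, none of them a member.

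Between the genotypes, Tnfrsf9 (CD137, a costimulatory receptor best known from T cells) was lower in KO-labelled cells with IFN-β by limma without the block. With the block Tnfrsf9 was lower and Tnfrsf11b and Tnfsf18 were higher in both treatments, and Tnfsf15 was higher with IFN-β. DESeq2 without the block called Tnfrsf9 and Tnfsf18 in both treatments and Tnfrsf23 with IFN-β. Without the block, 0 of 19 members passed in untreated cells, against 6.23% of all genes, and 1 of 19 passed with IFN-β (Tnfrsf9), against 6.55%. In untreated cells 5 of 19 members had an unadjusted p under 0.05, as did 2582 of all 12313 genes. There edgeR called 0 members and 710 genes, and DESeq2 2 members and 1513 genes. With IFN-β DESeq2 called 3 members and 1504 genes. With the block, 6 passed in untreated cells, against 26.6% of all genes, and 9 with IFN-β, against 26.0%. Of the 6, 3 were higher and 3 lower (13.5% and 13.1% of all genes), and of the 9, 5 were higher and 4 lower (12.7% and 13.3%). The untreated share is near the background and the IFN-β count was 1 without the block, so neither is a result about the family. Groups did not overlap for 6 and 9 members, against 31.6% and 40.5% of all genes. The median log2 fold change was 0.04 in untreated cells and 0.13 with IFN-β, beside 0.00 over all genes in both. The untreated and IFN-β comparisons contrast different libraries, but these share replicate numbers and were fitted together, so the comparisons are not independent.

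Tnfrsf9 (chr4:150914562-150946102, plus strand) was the member called without the block, with IFN-β. WT-labelled libraries held 14.3, 37.8 and 53.7 normalised reads untreated against 34.0, 24.0 and 61.6 treated. The KO-labelled values were 2.10 and 5.65 before and 0 and 3.65 after treatment. Every KO-labelled library lay below every WT-labelled one, and all 4 lay at 6 reads or fewer. With IFN-β the log2 fold change was -4.14 (SE 0.81, limma adjusted p = 0.018), and -3.76 with the block (adjusted p = 0.0025). Leaving out WT-labelled IFN-β replicate 3 (adjusted p = 0.0746) or KO-labelled IFN-β replicate 1 (adjusted p = 0.114) ended the call without the block, while the blocked call held without any of the 10 libraries (adjusted p up to 0.021). In untreated cells the log2 fold change was -2.81 (SE 0.81, adjusted p = 0.078), and -2.44 with the block (adjusted p = 0.015). The latter was lost without WT-labelled untreated replicate 2 or either untreated KO-labelled library (adjusted p up to 0.082). The size depends on the pseudocount because the KO-labelled values are so low, from -4.70 at 0.5 to -2.68 at 5 with IFN-β. The interaction did not pass (log2 -1.33, SE 1.15, adjusted p = 1).

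Tnfsf9, the ligand of Tnfrsf9, was higher in every KO-labelled library than in any WT-labelled one, without passing the test. It held 34.0, 27.1 and 24.8 normalised reads in untreated and 35.0, 23.0 and 24.1 in IFN-β WT-labelled libraries. Its KO-labelled values were 39.8 and 41.5 before and 46.5 in both libraries after treatment. The log2 fold change was 0.50 untreated (limma adjusted p = 0.437, 0.279 with the block) and 0.77 with IFN-β (0.219 and 0.093). Tnfsf9 shares 192 exon bases with Gm11110 on the opposite strand, and the strand setting of the counting is not stated.

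Tnfrsf11b was higher in KO-labelled cells within each replicate number, by 6.48- and 6.45-fold in untreated cells and by 4.91- and 3.73-fold with IFN-β for numbers 1 and 2. Without the block the log2 fold change was 3.15 untreated (SE 1.28, limma adjusted p = 0.197) and 2.53 with IFN-β (SE 1.28, adjusted p = 0.306), short of the threshold. With the block it was 2.70 (SE 0.35, adjusted p = 0.0012) and 2.08 (SE 0.35, adjusted p = 0.0038), and both calls held without each library in turn (adjusted p up to 0.010 and 0.042). Its ligand Tnfsf11 (RANKL) was lower in KO-labelled cells in both numbers and did not pass, with a blocked log2 fold change of -1.18 untreated and -1.56 with IFN-β (adjusted p = 0.155 and 0.074).

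Tnfsf18 (GITR ligand, chr1:161494655-161505290) and Tnfsf15 (TL1A, chr4:63727084-63745113), both ligands of receptors best known from lymphocytes, were high in KO-labelled number 1 libraries. Tnfsf18 held 1 read in each untreated WT-labelled library, and 5.15, 2.00 and 2.89 normalised reads with IFN-β. In KO-labelled cells the values were 80.7 and 8.48 before and 151 and 6.38 after treatment, so both groups lay above the WT-labelled ones, and number 1 far above number 2. The untreated ratio was 41.4 (95% counting interval 13.7 to 205), which covers counting error only. Limma's adjusted p was 0.118 untreated and 0.206 with IFN-β, and 0.017 and 0.039 with the block. The untreated blocked call was lost without WT-labelled untreated replicate 1 or either untreated KO-labelled library (adjusted p up to 0.110). With IFN-β it was lost without WT-labelled untreated replicate 3, any IFN-β WT-labelled library or KO-labelled IFN-β replicate 1 (adjusted p up to 0.345).

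Tnfsf15 held 42.8, 3.87 and 3.10 normalised reads in untreated and 30.9, 10.00 and 11.6 in IFN-β WT-labelled libraries. In KO-labelled cells it stood at 168 and 7.54 before and at 283 and 49.2 after treatment. The untreated groups overlapped and the IFN-β groups did not. Untreated, the log2 fold change was 1.99 (limma adjusted p = 0.489), and 1.59 with the block (adjusted p = 0.081), so it did not pass. With IFN-β the log2 fold change was 2.87 (limma adjusted p = 0.296), and 2.46 with the block (adjusted p = 0.018). Leaving out WT-labelled IFN-β replicate 1 or either IFN-β KO-labelled library ended that blocked call (adjusted p up to 0.124). Tnfsf13 (APRIL), at 13.4 or less in every library, passed with the block and IFN-β only (log2 1.79, adjusted p = 0.035; 1.12 and 0.569 without the block), and 6 of 10 single-library omissions ended that call (adjusted p up to 0.180). Those were WT-labelled untreated replicate 3 and each of the 5 IFN-β libraries. It shares 983 exon bases with the read-through gene Tnfsfm13 on its own strand and 221 with Tnfsf13os on the other, and Tnfsf12 shares 731 with Tnfsfm13, so their counts are uncertain.

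Of the death-domain receptors, and with the block, Tnfrsf10b was higher in KO-labelled cells in both treatments and Tnfrsf21 (death receptor of neurons and lymphocytes) lower in untreated ones. Tnfrsf10b held 514, 268 and 349.9 normalised reads in untreated and 399, 249.9 and 279 in IFN-β WT-labelled libraries. In KO-labelled cells it stood at 662 and 566 before and at 512 and 458 after treatment, above the WT-labelled ones in both treatments. Its log2 fold change was 0.75 untreated and 0.68 with IFN-β (limma adjusted p = 0.186 and 0.232), and with the block it passed at 0.70 and 0.63 (0.027 and 0.040). The untreated blocked call was lost without WT-labelled untreated replicate 2 or 3, WT-labelled IFN-β replicate 3 or KO-labelled untreated replicate 2 (adjusted p up to 0.223). The IFN-β call was lost without WT-labelled untreated replicate 3 or any of the 5 IFN-β libraries (adjusted p up to 0.318).

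Tnfrsf21 held 518, 121 and 308 normalised reads in untreated and 466, 145 and 268 in IFN-β WT-labelled libraries, against 404 and 38.6 before and 279 and 62.0 after treatment in KO-labelled cells. The groups overlapped, and number 2 was the lowest library in each. Its untreated log2 fold change of -1.09 (limma adjusted p = 0.629) was -1.03 with the block (adjusted p = 0.048), a call that held only without WT-labelled IFN-β replicate 1 or KO-labelled untreated replicate 1 (adjusted p up to 0.395 without each of the other 8 libraries). With IFN-β it did not pass, at log2 -0.93 with the block (adjusted p = 0.068) and -0.99 without it (adjusted p = 0.667).

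Tnfrsf19 (TROY, an orphan receptor) and the decoy receptors Tnfrsf22 and Tnfrsf23, neighbours on chromosome 7, were lower in KO-labelled cells with the block, Tnfrsf19 in both treatments and the decoys with IFN-β. Tnfrsf19 held 309.6, 196 and 87.7 normalised reads in untreated and 317, 269 and 159 in IFN-β WT-labelled libraries, against 186 and 65.0 before and 168 and 99.3 after treatment in KO-labelled cells. Its groups overlapped. The blocked log2 fold change was -1.05 untreated (limma adjusted p = 0.027) and -1.27 with IFN-β (0.013), where values without the block were -0.66 (0.607) and -0.88 (0.469). The untreated blocked call was lost without WT-labelled untreated replicate 1 or 2 or KO-labelled untreated replicate 2 (adjusted p up to 0.241), and the IFN-β one without WT-labelled IFN-β replicate 2 or either IFN-β KO-labelled library (up to 0.078).

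Tnfrsf23 held 198, 97.8 and 173 normalised reads in untreated and 189, 79.98 and 156 in IFN-β WT-labelled libraries, against 70.2 and 74.4 before and 48.6 and 55.6 after treatment in KO-labelled cells. Tnfrsf22 held 49.4, 54.2 and 59.9 in untreated and 40.2, 45.0 and 69.3 in IFN-β WT-labelled libraries, against 33.5 and 39.6 before and 18.0 and 31.0 after treatment in KO-labelled cells. Neither gene's genotype groups overlapped. With IFN-β and the block, the log2 fold change was -1.23 for Tnfrsf23 (limma adjusted p = 0.031; 0.101 without the block) and -0.90 for Tnfrsf22 (0.039; 0.131). In untreated cells neither passed with the block, at log2 -0.93 for Tnfrsf23 (adjusted p = 0.077) and -0.41 for Tnfrsf22 (adjusted p = 0.284), or without it (adjusted p = 0.193 and 0.433). Without any of WT-labelled untreated replicate 3, WT-labelled IFN-β replicate 1 or 3 or KO-labelled IFN-β replicate 1, the Tnfrsf23 call was lost (adjusted p up to 0.244). The Tnfrsf22 call held only without WT-labelled untreated replicate 2 (adjusted p up to 0.291 without each of the other 9 libraries). The 2 genes are near copies of each other, and Tnfrsf23 shares 164 exon bases with the antisense gene E230032D23Rik, so reads may be split between them. In bulk RNA, fewer cells with a message and less message per cell cannot be told apart.

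**Figure D3:**
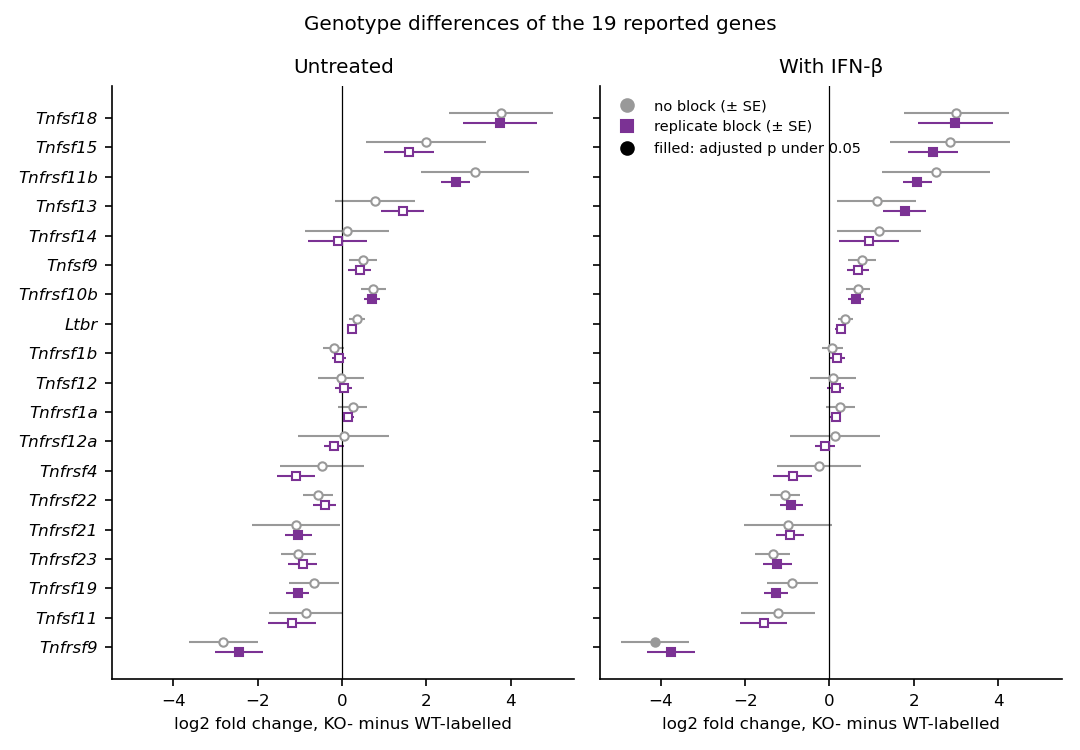
log2 fold change, KO-labelled minus WT-labelled, with its SE for the 19 reported genes in untreated cells (left) and with IFN-β (right), without the block (grey circles) and with it (purple squares); filled symbols passed at an adjusted p under 0.05. The single filled circle is Tnfrsf9 with IFN-β, and 6 squares are filled on the left and 9 on the right.

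The most abundant receptors did not pass between genotypes in either treatment. Ltbr held 2281 ± 483 normalised reads (SD, n = 3) in untreated WT-labelled and 2879 ± 254 (SD, n = 2) in untreated KO-labelled cells (limma adjusted p = 0.330, 0.202 with the block). With IFN-β it held 2148 ± 247 and 2783 ± 2.58, without overlap (adjusted p = 0.293 and 0.163). Tnfrsf12a (limma adjusted p = 0.991 untreated), Tnfrsf1a (0.752) and Tnfrsf1b (0.730) lay further from the threshold. Tnfrsf4 (OX40) held 26.8 ± 22.5 (n = 3) and 15.5 ± 3.28 (n = 2) untreated (adjusted p = 0.851), and Tnfsf12 held 140 ± 67.6 and 137 ± 72.5 (adjusted p = 0.991). The summed macrophage or dendritic markers ran from 258 to 419 in WT-labelled and from 145 to 204 in KO-labelled libraries. Cd14 was lower in KO-labelled cells, with means of 269 (WT-labelled) and 104 (KO-labelled) untreated and 230 and 90.9 with IFN-β. Csf1r was not, at 38.9 and 40.7 untreated and 21.6 and 31.6 with IFN-β. Cd68 differed little, at 31.7 and 34.7 untreated and 40.7 and 38.1 with IFN-β. The part of these markers in the differences above was not tested. Ptprc, Itgam, Itgax and Lyz2, which define those cells, never exceeded 2 reads.

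More members were called between replicate numbers than between genotypes or treatments, an order that is not particular to the family. Over all genes 48.6% were called by number. With the block, 26.6% and 26.0% were called between genotypes and 4.95% and 3.48% between treatments. This contrast, number 2 minus number 1 with the group accounted for, was chosen after the data were seen. It called 12 of 19 members, against 48.6% of all genes, 3 higher and 9 lower in number 2, against 25.3% and 23.3%. Tnfrsf12a held 6882, 6478, 8738 and 8089.6 normalised reads in the number 1 libraries (WT-labelled untreated and IFN-β, KO-labelled untreated and IFN-β) and 1973, 1639.6, 1145 and 1180.1 in number 2. WT-labelled number 3 libraries held 2150.3 and 2141, near number 2. The log2 difference was -2.37 (SE 0.18, limma adjusted p = 9.7e-05). The log2 difference was -2.88 for Tnfsf15, -2.66 for Tnfrsf11b and -2.32 for Tnfrsf21 (adjusted p = 0.0013, 0.00021 and 0.00028), negative in all 4 groups for each.

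Tnfsf12, the ligand of Tnfrsf12a, ran the other way. It held 78.0, 68.0, 86.0 and 69.7 normalised reads in number 1 and 212, 121, 188 and 159 in number 2 libraries, with no overlap (log2 1.14, limma adjusted p = 0.00068). Tnfrsf1a was also higher in number 2 in all 4 groups (log2 0.68, adjusted p = 0.0011), as was Tnfrsf14 in 3 of 4 (log2 1.61, adjusted p = 0.032). The other members lower in number 2 were Tnfsf18, Tnfsf11, Tnfrsf4, Tnfrsf19 and Tnfrsf10b, with log2 differences from -2.15 to -0.50. Nothing in the labels says what a replicate number marks.

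**Figure D4:**
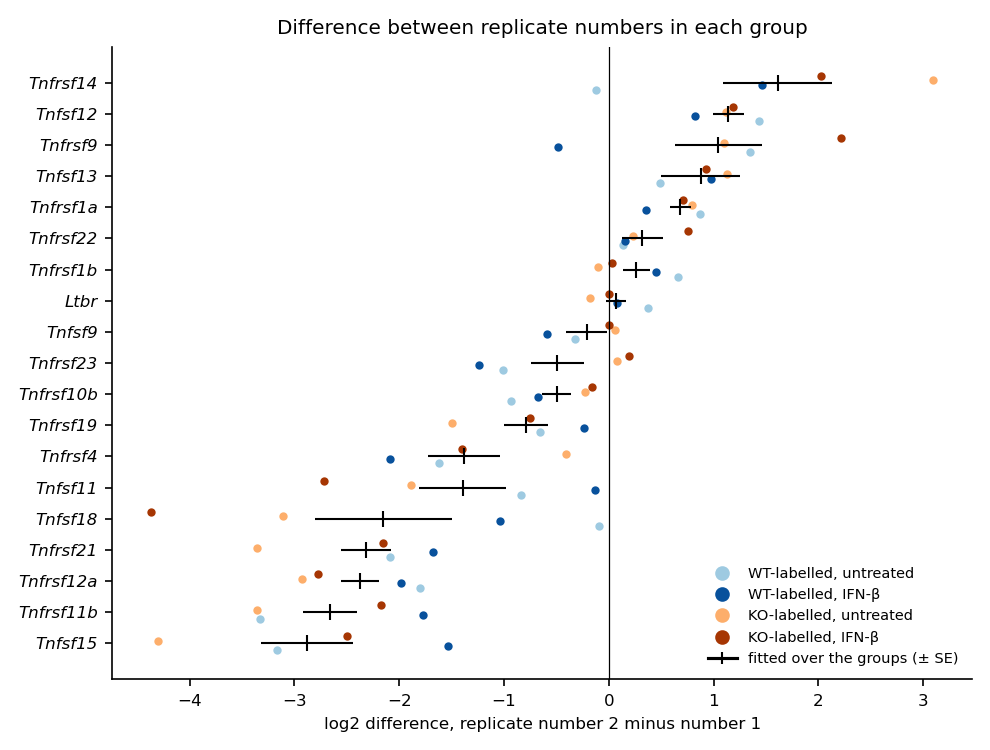
log2 difference between replicate numbers 2 and 1 in each of the 4 groups (coloured points) and fitted over the groups with its SE (black) for the 19 reported genes. Tnfrsf12a, Tnfrsf11b, Tnfrsf21 and Tnfsf15 lie left of 0 in all 4 groups, and Tnfsf12 and Tnfrsf1a right of it.

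A list of genes that TNF is known to induce in fibroblasts held many that were lower in KO-labelled cells. Tnf had no read in any library, and whether its receptors signalled was not tested. Of 27 tested genes on this list, 13 fell and 0 rose in untreated cells, where 3.23% of all genes fell, and 10 fell and 0 rose with IFN-β, where 3.64% of all genes fell. With the block 20 and 19 fell, where 13.1% and 13.3% of all genes did. Tnfaip3, Nfkb2, Traf1, Vcam1, Cxcl2, Csf1 and Zfp36 passed in neither treatment, with or without the block. The median log2 fold change was -2.80 and -1.99, beside 0.00 over all genes. Genes at 0 in KO-labelled cells lay below the median also when set to their bound, so that step could not change it. The list was chosen with earlier results of these data known, so its counts and medians are descriptions. Cxcl5, a neutrophil chemokine, fell from 2982 ± 1280 (SD, n = 3) to 3.87 ± 2.51 normalised reads (SD, n = 2) in untreated cells (log2 -9.24, limma adjusted p = 2.7e-05). Tnfaip2 fell from 642 ± 96.9 to 14.4 ± 1.02 (log2 -5.38, adjusted p = 4.8e-05), and Birc3, an inhibitor of apoptosis that acts at TNF receptors, from 1558 ± 399 to 47.4 ± 31.5 (log2 -5.14, adjusted p = 0.00026). Mmp3 held 296, 106 and 418 normalised reads in untreated WT-labelled libraries and had no read in KO-labelled cells. The mean of the former was 91.6-fold the level of 3 reads in untreated KO-labelled libraries. The other genes that fell were Saa3, Lcn2, Mmp13, Il6, Ccl2, Ccl7, Ccl5, Sod2 and Nfkbie in untreated cells, and with IFN-β the same genes except Il6, Ccl5 and Ccl7. Calls that 1 library decided were those of Ccl5 (WT-labelled untreated replicate 2 or KO-labelled untreated replicate 1, adjusted p up to 0.105 without it), Ccl7 (the latter library, 0.077), Sod2 (WT-labelled untreated replicate 2 or 3 or KO-labelled untreated replicate 2, up to 0.155, and KO-labelled IFN-β replicate 2, 0.058) and Nfkbie (KO-labelled untreated replicate 1, 0.053, and KO-labelled IFN-β replicate 1, 0.056). With IFN-β itself, 1 of the 27 rose in WT-labelled cells (Zfp36) and 4 in KO-labelled cells (Ccl2, Ccl7, Il6 and Zfp36), where 2.21% and 1.84% of all genes passed. With the block 6 rose in WT-labelled cells (Ptgs2 and Vcam1 besides those 4) and the same 4 in KO-labelled cells, where 4.95% and 3.48% of all genes passed. Of the calls without the block, that of Il6 in KO-labelled cells held without each library in turn (log2 6.29, adjusted p up to 0.0076), while each of the others was lost without one or another of 6 to 8 single libraries (up to 0.424). The lists overlap: Birc3, Traf1, Nfkbie, Nfkbia, Nfkb2, Relb and Tnfaip3 stand on this list and on another of those described next. Positions of the listed genes were not examined, so genes that lie together on a chromosome count separately.

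Of 25 tested receptor adaptors and death-signalling genes, 1 rose and 3 fell between genotypes in each treatment, where 6.23% of all genes passed untreated and 6.55% with IFN-β, with a median log2 fold change of -0.07 untreated and -0.08 with IFN-β. The deubiquitinase Cyld rose (log2 1.23 untreated, limma adjusted p = 0.0039), and Birc3, its neighbour Birc2 (log2 -2.42, adjusted p = 0.0029) and the kinase Map3k5 (log2 -2.20, adjusted p = 0.013) fell. The Map3k5 call was lost without WT-labelled untreated replicate 3 or either untreated KO-labelled library (up to 0.071), and that of Cyld with IFN-β (log2 0.98, adjusted p = 0.011) without KO-labelled IFN-β replicate 2 (0.108). With the block 3 rose and 4 fell untreated, near the 26.6% of all genes, and 3 rose and 6 fell with IFN-β, beside 26.0%. The necroptosis effector Mlkl and the LUBAC subunit Rnf31 rose with IFN-β in both genotypes, Mlkl from 184 ± 52.9 to 1155 ± 44.1 (n = 3) in WT-labelled and 277 ± 19.8 to 1505 ± 117 (n = 2) in KO-labelled cells. The Rnf31 call in KO-labelled cells (log2 1.30, adjusted p = 0.0069) was lost without KO-labelled untreated replicate 1 or KO-labelled IFN-β replicate 2 (up to 0.094). Otulin was not analysed here.

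Of 16 NF-κB pathway genes, 0 rose and 1 fell between genotypes in each treatment, where 3.23% of all genes fell untreated and 3.64% with IFN-β. It was the inhibitor Nfkbie, at log2 -2.83 untreated (limma adjusted p = 0.0083, 0.053 without KO-labelled untreated replicate 1) and -2.91 with IFN-β (0.0076, 0.056 without KO-labelled IFN-β replicate 1). With the block 6 and 5 fell, where 13.1% and 13.3% of all genes did, among them Nfkbia, Nfkbib, Bcl3 and the kinase Map3k14 of the alternative pathway. None of the 16 passed with IFN-β in either genotype. Of 10 superfamily genes with other symbols, 4 were tested. The death receptor Fas fell from 890.1 ± 522 (SD, n = 3) to 39.7 ± 25.1 (SD, n = 2) in untreated KO-labelled cells (log2 -4.34, adjusted p = 0.0087, 0.059 without KO-labelled untreated replicate 1). The ectodysplasin receptor Eda2r rose from 37.1 ± 11.2 to 112 ± 22.4 (log2 1.61, adjusted p = 0.025, up to 0.165 without either untreated KO-labelled library), and with IFN-β in WT-labelled cells (log2 1.72, adjusted p = 0.016, up to 0.089 without IFN-β replicate 1 or 3). In KO-labelled cells Eda2r was 1.52 higher on the log2 scale with IFN-β (adjusted p = 0.121, 0.031 with the block), and Fas 1.43 higher (adjusted p = 1, 0.0093 with the block). With IFN-β the genotype differences of Fas (log2 -2.96, adjusted p = 0.046) and Eda2r (log2 1.40, adjusted p = 0.043) passed narrowly, and leaving out 6 and 9 of the single libraries, respectively, ended the calls (up to 0.216 and 0.194). None of the 5 genes of receptor shedding passed without the block, and with it 2 fell between genotypes in each treatment, Rhbdf1 in both, Frmd8 untreated and Adam17 with IFN-β, beside the 13.1% and 13.3% of all genes that fell.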

How the data were processed

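The submitters' processing notes name cutadapt 1.13, STAR 2.5.2a, HTSeq, DESeq2 and the mm10 build; annotation and strand setting are not given in the sources used here. The deposited unit is a signal: whole reads per gene, scaled by the authors with a factor for each library. All values were whole multiples of 1 read within 0.001 reads, so reads were recovered. Totals of 13565815 to 16329729 reads set the depth, and intervals and floors of 3 reads cover counting error only.

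Using R 4.3.3, normalised reads plus 1 were put on the log2 scale and tested by limma 3.58.1 with a trend, with a mean for each of 4 groups over 10 libraries. Genes passed filterByExpr (edgeR 4.0.16, minimum count 10), which left 12313. Adjusted p-values are Benjamini-Hochberg over all of them, two-sided, called under 0.05. The pseudocount understates changes of low genes. All 19 reported members were tested.

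Replicate numbers come from the labels. Same-numbered libraries of different groups deviated together (r 0.48 to 0.871, each above 0.1; other pairs at most 0.318), so the numbers pair the samples. Where leaving out a library leaves an arm with 1 sample, that sample is assumed to vary like the other groups.

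Alternatives were the replicate block, other pseudocounts, no low-count filter, TMM scaling, edgeR, DESeq2 1.42.0, only the groups compared and each library left out. Named genes are every reported member, with values in every library for those called in any fit, unreported members by their highest value, and called members of the pathway lists. Members, lists and tests were chosen with earlier results of these data known. Gene positions and exon lengths are from GENCODE M21 (GRCm38). Adgre1, a macrophage marker, was not analysed here. The fits were tested on simulated data.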

Additional observations from a re-analysis of the deposited data

How the results depend on the processing

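The replicate block, in limma and in edgeR, moved the number of members called from 0 to 1 for IFN-β in WT-labelled cells, from 0 to 6 between untreated genotypes and from 1 to 9 between genotypes with IFN-β. DESeq2 without the block called 2 (Tnfrsf9 and Tnfsf18) and 3 (Tnfrsf23, Tnfrsf9 and Tnfsf18) in the genotype comparisons, where it called 1513 and 1504 of all 12313 genes. The cause of these differences was not tested. With each library left out, the calls ranged from 0 to 0 for IFN-β in either genotype and for the interaction, from 0 to 1 between untreated genotypes and from 0 to 2 with IFN-β. With the block as well, they ranged from 1 to 1 for IFN-β in WT-labelled cells, 0 to 1 in KO-labelled cells, 2, 3, 4, 5 or 6 between untreated genotypes, 3 to 10 with IFN-β (4 without WT-labelled untreated replicate 3, WT-labelled IFN-β replicate 2 or 3 or KO-labelled IFN-β replicate 2) and 0 to 0 for the interaction. No other setting moved a count of members by over 1.5 times.

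Each single-gene fold change was counted once for every alternative setting, so the counts here are not numbers of genes. Without the block only Tnfrsf9 with IFN-β was called, so most unchanged results are fold changes that stayed uncalled. Under the alternatives 597 kept their direction and side of the threshold, 136 gained a call, 2 lost one (each time Tnfrsf9 with IFN-β) and 8 reversed. All of the last came with 1 library left out and no block. The log2 fold change of Tnfrsf11b then ranged from -0.11 to 3.25 for IFN-β in KO-labelled cells and from -2.30 to 1.06 for the interaction. Between untreated genotypes Tnfrsf19 ranged from -1.41 to 0.087, Tnfrsf21 from -2.77 to 0.59 and Tnfsf15 from -0.16 to 4.14. Tnfrsf21 with IFN-β ranged from -2.07 to 0.087. None of these was called without the block. Depth limits Tnfrsf9, Tnfrsf14, Tnfsf13 and Tnfsf18, whose lowest groups hold few reads per library.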
